A study of Brachypodium distachyon with 8 samples.

Results

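The genes described here are those of *Brachypodium distachyon* whose leaf mRNA was at least 2 times more abundant in the libraries with a high *LNJ* transcript than in those with a low one, without a comparable change upon MeJA. LNJ (LITTLE NINJA) is a microProtein, a small single-domain protein related to the larger NINJA proteins, and MeJA is the methyl ester of jasmonic acid (JA), a hormone of defense and growth. Of 27830 gene identifiers listed, 14922 had a mean of at least 1 FPKM (sequenced fragments corrected for transcript length and library depth) over the 8 libraries, and 365 of these were members. A member had a mean FPKM at least 2 times higher over the 4 LNJ-high libraries than over the 4 LNJ-low libraries, its lowest LNJ-high value lay above its highest LNJ-low value, and its mock and MeJA pairs did not differ 2-fold without overlap in either genotype. The members were thus selected on the FPKM values of these 8 libraries, so all their levels and ratios are given as descriptions and none was tested.

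Leaves of 4-week-old plants of the inbred line Bd21-3 were sprayed with MeJA (100 μM in 0.15% Tween) or with mock solution (0.15% Tween), and each sample pooled 12 plants. The methods describe 2 schedules, 5 sprays at 3-day intervals with harvest after 30 minutes and 3 sprays every 2 days, and do not say which one applied to these libraries. By the sample labels there were 4 groups of 2 samples: wild type mock (replicates 1 and 2), wild type with MeJA (replicates 3 and 4), MTL-OX mock (replicates 5 and 6) and MTL-OX with MeJA (replicates 7 and 8). MTL-OX stands for the transgenic plants, which the series notes say were earlier named ABI and which the study calls *BdLNJ-OX*; homozygous progeny overexpressing the *LNJ* coding sequence were made, but the line behind each library and the promoter of the construct are not given in the sources used here.

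The *LNJ* transcript went against the genotype labels in all 8 libraries. *LNJ* (BRADI1G69970, chromosome 1, 68443871 to 68444179) had 689, 762, 597 and 581 FPKM in replicates 1 to 4, labelled wild type, against 0, 0, 0 and 0.834 FPKM in replicates 5 to 8, labelled MTL-OX. The value of 0.834 FPKM corresponded to 1 fragment, and the 4 libraries labelled wild type had at least 715 fragments each. The deposited tables of these 8 samples carry the other genotype in their names, so that names and *LNJ* transcript matched while labels and *LNJ* transcript did not. The libraries are therefore called LNJ-high (labelled wild type, replicates 1 to 4) and LNJ-low (labelled MTL-OX, replicates 5 to 8), and every direction below is that of LNJ-high over LNJ-low libraries. If the sample labels were right, each direction between genotypes would be turned round.

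In Arabidopsis, JAZ repressors bind MYC-type transcription factors and, through the adaptor NINJA, recruit the corepressor TOPLESS, which keeps JA-responsive genes off. JA-isoleucine triggers degradation of JAZ proteins and thereby releases these genes, which serve defense at the expense of growth. LNJ holds the domain of NINJA proteins (Domain C) through which NINJA interacts with JAZ. In yeast, the paper reports binding of LNJ to NINJA and none to JAZ. This is the background against which the genotypes were compared. Neither the deposited tables nor the reference table available paired the gene identifiers of the members with names or products, so members are described by level, by position as the tables list it (genome build not given in the sources used here) and by pattern over the libraries. Leaf markers could not be checked for the same reason, and in bulk leaf tissue fewer cells of a type and less RNA per cell cannot be told apart.

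The implied number of fragments was similar between libraries, between 13452995 and 15821699. Scale differed more among the LNJ-low libraries: the 10 most abundant genes took 27.2% of all FPKM in mock replicate 5 and 17.9% in MeJA replicate 8, with 19.3 to 22.1% in the other 6. Scale factors from the median ratio over genes ranged from 0.850 in replicate 5 to 1.11 in replicate 8 and lay between 0.937 and 1.07 in the other 6 libraries. The median gene was 1.07 times higher in the LNJ-high than in the LNJ-low libraries before scaling and 0.988 times after it, and the median ratio of the members was 2.26 before and 2.06 after.

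A total of 376 genes, 2.52% of those tested, met the fold and the separation, and 11 of them were removed because of a MeJA change, which left the 365 members (2.45% of 14922). The mirrored rule, applied to genes lower in the LNJ-high libraries, gave 78 genes (0.523%), or 97 genes (0.65%) before its MeJA exclusion. Most members lay close to the threshold. Their median ratio of 2.26 had quartiles of 2.12 and 2.51. A total of 26 members reached 3-fold and 5 reached 5-fold, against 64 (0.429%) and 25 (0.168%) of all genes tested. The 5 included *LNJ* and the 2 members with fewer than 10 fragments in an LNJ-high library. The members just inside were 2 genes with ratios of 2.002, at chromosome 3, 45521302 to 45523373 (65.7 against 32.8 FPKM) and chromosome 2, 14989751 to 14993913 (2.82 against 1.41 FPKM). Just outside lay genes at chromosome 4, 5711009 to 5713813, with a ratio of 1.999 (55.8 against 27.9 FPKM), and chromosome 5, 20626049 to 20629783, with a ratio of 1.997 (27.3 against 13.7 FPKM). The plot of mean levels shows the members as a narrow band above the 2-fold line. Apart from *LNJ*, their LNJ-high means ran from 1.34 to 303 FPKM, while genes tested reached 40876 FPKM.

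**Figure D1:**
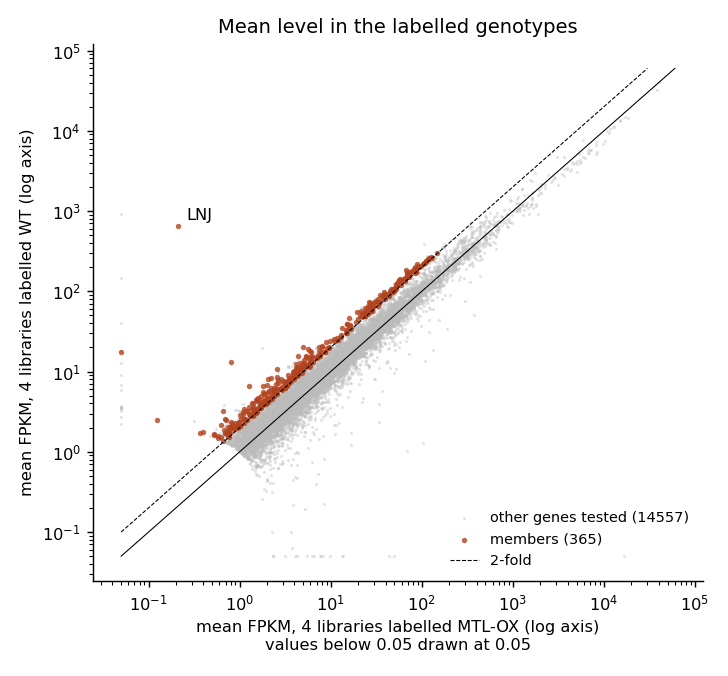
Mean FPKM of each gene tested over the 4 LNJ-high libraries (labelled WT, vertical log axis) against the 4 LNJ-low libraries (labelled MTL-OX, horizontal log axis). The 365 members (red) follow the dashed 2-fold line at a median ratio of 2.26, *LNJ* stands far from them, and the other 14557 genes tested (grey) spread around the line of equal means.

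The separation of the groups was narrow for most members. The lowest LNJ-high value was 1.19 times the highest LNJ-low value in the median member. This ratio was less than 1.2 in 190 of the 365 members (52.1%) and in 96.6% of all genes tested, where the groups could overlap. It was at least 1.5 for 51 members, against 60 (0.402%) of all genes tested. For 10 members (0.067% of the genes tested) it was at least 2, against 11 (0.0737%) of all genes tested. These 10 were singled out after their values were seen. They included *LNJ* and a gene at chromosome 2, 2622549 to 2622761, which had 16.3, 21.8, 23.1 and 8.13 FPKM in the LNJ-high libraries and was listed at 0 in all 4 LNJ-low libraries. This gene of 213 bp rested on 1 to 3 fragments per LNJ-high library, so no fold is given. After median-ratio scaling, 6 of the 10 kept a 2-fold separation. With a library left out, a 2-fold separation keeps the fold and the separation of the rule by construction.

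Apart from *LNJ*, the member with the highest ratio among those with at least 10 fragments in each LNJ-high library was BRADI2G35000 (chromosome 2, 35076621 to 35079400). It had 2.60, 2.05, 2.68 and 2.72 FPKM in the LNJ-high libraries (2.51 ± 0.315, SD, n = 4), against 0.0254, 0.218, 0.108 and 0.15 FPKM in the LNJ-low libraries (0.125 ± 0.0804, SD, n = 4). The ratio of means was 20.05, with 19.1 in mock and 20.9 in MeJA libraries, and all LNJ-high values lay far above all LNJ-low values, at a low level of expression. The LNJ-low values rested on 1, 8, 4 and 6 fragments, and with 1 FPKM added to both means the ratio was 1.64 instead of 4.33 on the log2 scale. A second member, at chromosome 2, 35023313 to 35029417, directly preceded it among the genes tested and had 4.28, 7.58, 5.02 and 5.07 FPKM in the LNJ-high libraries, against 1.12, 2.84, 3.27 and 2.11 FPKM in the LNJ-low libraries.

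The other 7 members with a 2-fold separation had ratios between 2.68 and 4.55. The gene at chromosome 3, 32299186 to 32302091, had 9.97, 9.09, 11.1 and 12.5 FPKM in the LNJ-high libraries, against 1.71, 3.03, 2.72 and 2.72 FPKM in the LNJ-low libraries, with a ratio of 4.20. The gene at chromosome 1, 10471615 to 10473996, had 23.1, 23.2, 14.4 and 21.1 FPKM in the LNJ-high libraries, against 6.62, 4.30, 3.96 and 5.16 FPKM in the LNJ-low libraries, with a ratio of 4.08. In both genes, mock and MeJA values overlapped in the LNJ-low libraries but not in the LNJ-high libraries. There, MeJA over mock was 1.24 in the first gene and 0.765 in the second. The distance between the genotypes follows from how these genes were chosen. The gene at chromosome 2, 30874552 to 30880183, showed small spread, with 17.5, 18.1, 19.97 and 20.3 FPKM in the LNJ-high libraries, against 5.40, 5.07, 5.19 and 7.15 FPKM in the LNJ-low libraries. The gene at chromosome 2, 3903279 to 3905804, averaged 2.22 ± 0.142 FPKM in LNJ-high and 0.827 ± 0.129 FPKM in LNJ-low libraries (SD, n = 4 each). The remaining 3 lay at chromosome 1, 74267187 to 74269790 (3.38 ± 0.719 against 1.11 ± 0.173 FPKM), chromosome 2, 23586546 to 23595708 (8.09 ± 1.09 against 2.04 ± 1.31 FPKM) and chromosome 4, 28954607 to 28958300 (1.79 ± 0.410 against 0.393 ± 0.146 FPKM). For the gene of chromosome 2 with a mean of 8.09 FPKM, the 4 LNJ-low values of 0.515, 3.22, 1.38 and 3.03 FPKM spread widely, with replicate 6 at 6.27 times replicate 5, as the plot of these members shows.

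**Figure D2:**
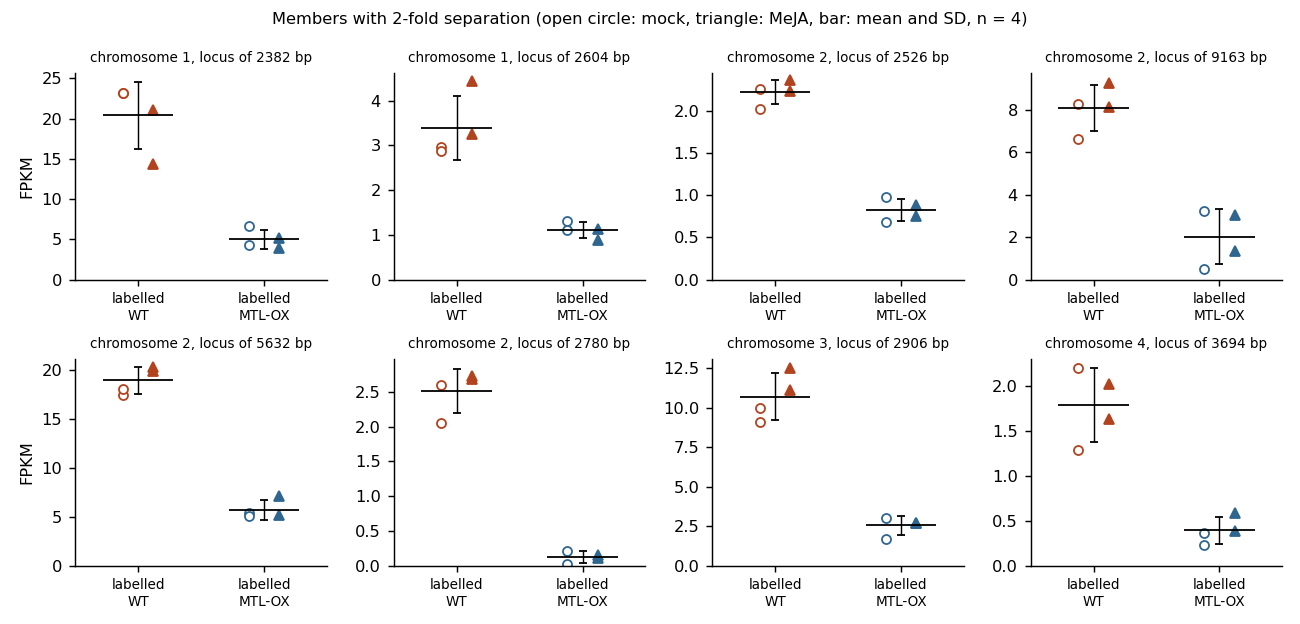
FPKM of 8 members with a 2-fold separation of the groups, in LNJ-high (labelled WT, left) and LNJ-low libraries (labelled MTL-OX, right), with mean and SD over 4 libraries each. *LNJ* and the gene resting on 1 to 3 fragments are not drawn, and in each panel the lowest LNJ-high value is at least 2 times the highest LNJ-low value, with mock (open circles) and MeJA (triangles) on the same side.

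The abundant members showed another picture. Apart from *LNJ*, the 12 members of highest level averaged between 217 and 303 FPKM in the LNJ-high libraries, with ratios between 2.01 and 2.44, and none of them had a 2-fold separation. The highest, BRADI3G33770 (chromosome 3, 36249355 to 36251962), had 210, 358, 327 and 316 FPKM in the LNJ-high libraries, against 76.9, 180, 208 and 116 FPKM in the LNJ-low libraries. Its MeJA replicate 7, LNJ-low, with 208 FPKM, came within 1.01 times of its mock replicate 1, LNJ-high, with 210 FPKM. The member at chromosome 3, 54137288 to 54139087, had 201, 322, 246 and 246 FPKM in the LNJ-high libraries, against 68.6, 197, 138 and 72.0 FPKM in the LNJ-low libraries. Its mock replicates 5 and 6, both LNJ-low, differed 2.87-fold from each other, more than the genotypes did (2.14-fold). This replicate difference was the largest among the 12. It was smallest at chromosome 1, 46682208 to 46683021, with 2.103-fold against 2.105-fold between genotypes. At chromosome 4, 45284081 to 45286919, it was also below the genotype ratio (2.41-fold against 2.44-fold).

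In all 12 of these abundant members, LNJ-low replicates 5 and 8 were both below replicates 6 and 7, and in 11 of them LNJ-high replicate 2 was the highest library. The same order ran through most of the 365. Relative to the mean of each gene over the 8 libraries, the median member was at 1.15, 1.60, 1.43 and 1.37 in LNJ-high replicates 1 to 4 and at 0.409, 0.909, 0.680 and 0.414 in LNJ-low replicates 5 to 8. Over all genes tested, these medians were 1.02, 1.01, 1.04 and 1.05 in the LNJ-high libraries and 0.833, 0.913, 0.970 and 1.08 in the LNJ-low libraries. The members were thus lowest in 1 mock and 1 MeJA library of the LNJ-low plants and nearer to the LNJ-high level in the other mock and the other MeJA library. After median-ratio scaling, the medians in replicates 5 to 8 were 0.495, 0.992, 0.703 and 0.385.

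**Figure D3:**
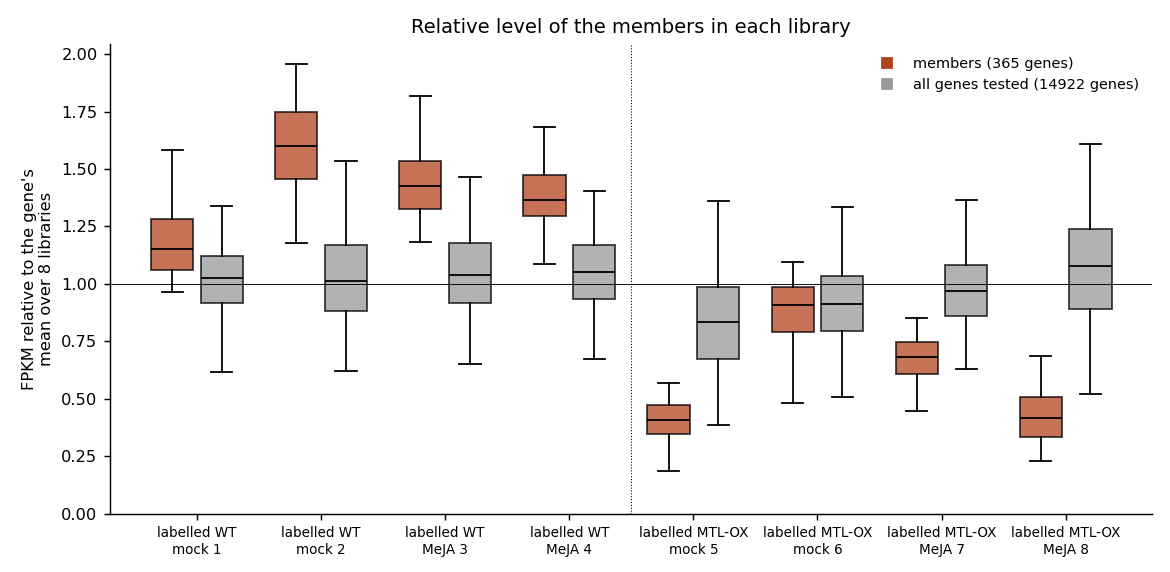
FPKM relative to the mean of each gene over 8 libraries, for the 365 members (red) and all 14922 genes tested (grey), in the LNJ-high libraries (labelled WT, left of the dotted line) and the LNJ-low libraries (labelled MTL-OX, right). Boxes span the quartiles with the median and whiskers the 5th to 95th percentile, and the members have their lowest medians in replicate 5 (0.409) and replicate 8 (0.414).

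Counted gene by gene, LNJ-low replicates 5 and 8 were both below replicates 6 and 7 in 304 members (83.3%), against 15.9% of all genes tested. From low to high, the order 8, 5, 7, 6 occurred in 162 members and the order 5, 8, 7, 6 in 112. Among the LNJ-high libraries, replicate 2 was the highest in 234 members (64.1%, against 26.8% of all genes tested) and replicate 1 the lowest in 257 (70.4%, against 31.5%). Mock replicate 6 was 2.23 times mock replicate 5 in the median member and 1.07 times over all genes tested. MeJA replicate 7 was 1.63 times MeJA replicate 8 in the median member, against 0.924 times over all genes tested. Within the LNJ-high libraries, replicate 2 was 1.38 times replicate 1 in the median member and replicate 3 was 1.04 times replicate 4. Over all genes tested, these medians were 0.999 and 0.984. The plot of ratios between LNJ-low replicates shows the members displaced along both axes.

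**Figure D4:**
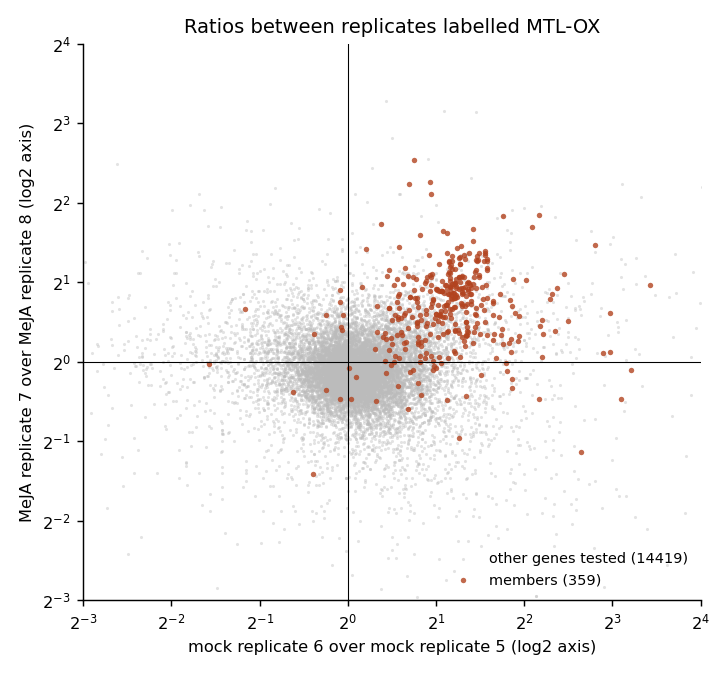
Ratio of mock replicate 6 to mock replicate 5 (horizontal log2 axis) and of MeJA replicate 7 to MeJA replicate 8 (vertical log2 axis), all labelled MTL-OX and LNJ-low, for 359 members (red) and 14419 other genes tested (grey) with values above 0 in all 4 libraries. The medians of the members are 2.23 and 1.63, against 1.07 and 0.924 over all genes tested.

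The ratio of the members therefore depended on which LNJ-low libraries were set against the LNJ-high ones. Against replicates 5 and 8, the mean of the 4 LNJ-high libraries was 3.31 times higher in the median member, and 363 of the 365 members reached 2-fold, against a median of 1.06 and 8.32% of all genes tested. Against replicates 6 and 7 it was 1.74 times higher, and 77 members reached 2-fold, against a median of 1.10 and 1.76% of all genes tested. Both ratios use the values that selected the members, so their high shares follow at least in part from the rule. With replicates 5 and 8 both left out, which was chosen after seeing the data, the whole rule gave 97 genes, 63 of them members. Without replicate 5 alone it gave 171 genes, 157 of them members, and without replicate 6 alone it gave 654 genes, 308 of them members. A total of 166 members kept the fold and the mean of at least 1 FPKM with each library left out in turn. Their separation was kept by construction. After median-ratio scaling, 129 of these members met the fold and the separation.

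**Figure D5:**
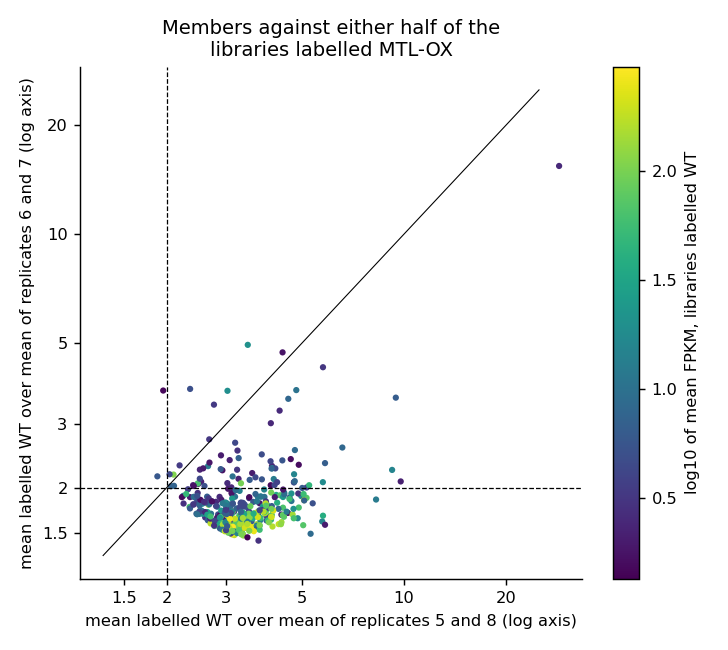
Ratio of the mean of the 4 LNJ-high libraries (labelled WT) to the mean of LNJ-low replicates 6 and 7 (vertical log axis) and of LNJ-low replicates 5 and 8 (horizontal log axis), labelled MTL-OX, for 359 members with a ratio on both axes, without *LNJ*; colour gives the level. Most members lie right of the vertical 2-fold line and below the horizontal one, and the 12 members of highest level (yellow) have ratios between 1.49 and 1.73 to replicates 6 and 7.

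Among the members, the shared pattern was more frequent at higher levels of expression. A profile was taken as the median of the members in each library after centring each gene within its genotype, and the correlation of each gene with it was computed over the 8 libraries. Since the profile was built from the members, the values are descriptive. A correlation of at least 0.9 was found for 181 members (49.6%), against 548 of all genes tested (3.67%). These 181 had a median LNJ-high mean of 54.1 FPKM, against 5.003 FPKM for the other 184. By level, 24 of 115 members below 5 FPKM, 47 of 116 between 5 and 20 FPKM, 54 of 75 between 20 and 100 FPKM and 56 of 59 at 100 FPKM and above reached this correlation. The shares of all genes tested at these levels were not computed, so whether the trend is particular to the members was not tested. The loci of the 181 were also shorter, with a median length of 2459 bp, against 3689.5 bp for the other 184 and 3315.5 bp over all genes tested. Of the 10 members with a 2-fold separation, 1 reached the correlation of 0.9. The lowest number of fragments in an LNJ-high library was also higher, with a median of 655 for the 181, against 121 for the other 184, and 2 of the 365 members had fewer than 10 fragments in an LNJ-high library. What set replicates 5 and 8 apart was not tested.

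Members as a set took 1.47, 2.13, 1.86 and 1.84% of all FPKM in the LNJ-high libraries, against 0.456, 1.15, 0.902 and 0.500% in the LNJ-low libraries. The mirrored set of 78 genes had its highest medians in LNJ-low replicates 8 (1.60) and 5 (1.54) and lower ones in replicates 7 (1.36) and 6 (1.13), with 0.466 to 0.623 in the LNJ-high libraries. FPKM taken by genes named as rRNA was 4.59% in replicate 8, 4.04% in replicate 5 and 4.47% in replicate 2, and 2.28 to 2.91% in the other 5 libraries. This share was thus high in the libraries with the lowest members and also in the library with the highest members, and its part in the result was not tested.

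Most members passed the MeJA exclusion with a mean change below 2-fold. MeJA over mock was 1.01 in the median member of the LNJ-high libraries, against 1.02 over all genes tested. In the LNJ-low libraries it was 0.828 in the median member, against 1.16 over all genes tested. The mock and MeJA pairs overlapped for 289 members (79.2%) in the LNJ-high libraries and for 336 members (92.1%) in the LNJ-low libraries, against 60.0% and 53.1% of all genes tested. The rule let pass a mean MeJA change of at least 2-fold with overlapping pairs. Such a change was present in 1 of 365 members in the LNJ-high libraries, against 130 of 14922 genes tested. In the LNJ-low libraries it was present in 8 members, against 185 of 14922 genes tested. Replicates of a group differed 2.23-fold in the LNJ-low mock pair (6 over 5) and 1.63-fold in the LNJ-low MeJA pair (7 over 8) in the median member, against 1.38-fold in the LNJ-high mock pair (2 over 1) and 1.04-fold in the LNJ-high MeJA pair (3 over 4).

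The genotype ratio was higher with MeJA than in mock libraries for the median member. In mock libraries alone, the ratio was 2.10 in the median member and at least 2 in 242 members, against a median of 1.17 and 4.83% of all genes tested. In MeJA libraries alone, it was 2.49 in the median member and at least 2 in 339 members, against a median of 1.003 and 5.33% of all genes tested. Both ratios were at least 2 in 216 members and in 1.82% of all genes tested. The mock and MeJA ratios use the values that selected the members, so their high shares follow from the rule. Over all genes the median ratio of unscaled FPKM was thus lower with MeJA than in mock libraries. Scale factors of the LNJ-low libraries were 0.850 and 0.937 in mock and 0.993 and 1.11 with MeJA, and their part in this was not tested. The 11 genes removed for a MeJA change included one at chromosome 4, 5863457 to 5865259, with 1.18, 2.85, 2.25 and 2.61 FPKM in the LNJ-high libraries, against 0, 0, 0.0680 and 0.0628 FPKM in the LNJ-low libraries. It was the only removed gene with a 2-fold separation, and its MeJA ratio in the LNJ-low libraries rested on 2 fragments per MeJA library.

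Members were found on all 5 chromosomes in shares between 2.12 and 2.72% of the genes tested there, 123 on chromosome 1, 77 on chromosome 2, 78 on chromosome 3, 57 on chromosome 4 and 30 on chromosome 5. There were 12 pairs of members that were direct neighbours among the genes tested, and no longer run. The number of pairs that the share of members alone would give was not computed, so the pairs are not read as clustering. One pair, at chromosome 2, 54185148 to 54189383 and 54189603 to 54193142, had loci 219 bp apart. The first gene had 1.91, 2.29, 2.04 and 2.44 FPKM in the LNJ-high libraries, against 0.0300, 1.41, 0.671 and 0.413 FPKM in the LNJ-low libraries. The second had 15.5, 33.1, 23.1 and 22.8 FPKM in the LNJ-high libraries, against 6.54, 14.3, 10.8 and 4.19 FPKM in the LNJ-low libraries. Both had replicate 6 as the highest LNJ-low library, as did the members with the orders 8, 5, 7, 6 (162) and 5, 8, 7, 6 (112).

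The loci of 20 members (5.48%, against 4.09% of all genes tested) overlapped another listed gene, so that their fragments could be split between genes by the estimation. In all, 6 members were listed at 0 in at least 1 LNJ-low library. Among them, the member at chromosome 2, 14416077 to 14421991, had 12.7, 15.09, 15.6 and 17.2 FPKM in the LNJ-high libraries, against 0, 11.6, 9.62 and 0 FPKM in the LNJ-low libraries, and overlapped another listed gene. Its zeros fell in replicates 5 and 8. The estimation status was OK in every library for all 365 members, so no zero was flagged as failed. How fragments were shared with the overlapping gene was not tested.

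Of the JA pathway, *JAZ* and *NINJA* were the genes besides *LNJ* that the sources used here pair with an identifier, and neither was a member. *JAZ* (BRADI1G21490, chromosome 1, 17327516 to 17329243), a repressor of the JA response, had 25.2, 27.0, 26.1 and 30.4 FPKM in the LNJ-high libraries, against 43.4, 36.6, 49.4 and 57.2 FPKM in the LNJ-low libraries. The groups did not overlap, and all LNJ-low values were higher. In a limma fit on log2(FPKM + 1) with treatment as covariate, the difference was -0.74 ± 0.12 (SE) on the log2 scale with a Benjamini-Hochberg adjusted p of 0.0392, which is less than the 2-fold required for a call. *NINJA* (BRADI2G11790, chromosome 2, 10109219 to 10112903), the adaptor to the corepressor, had 19.0, 17.7, 20.6 and 20.6 FPKM in the LNJ-high libraries, against 16.6, 21.9, 19.5 and 26.7 FPKM in the LNJ-low libraries. The groups overlapped, and the limma difference was -0.10 ± 0.13 (SE) on the log2 scale (adjusted p = 0.671).

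The limma fit thus called 0 of these 2 genes at 2-fold and an adjusted p of at most 0.05, and 1 of 2 had an unadjusted p below 0.05. Over all 14922 genes tested, it called 120 higher (0.804%) and 45 lower (0.302%) in the LNJ-high libraries, with a median difference of 0.099 on the log2 scale. After median-ratio scaling, which moved that median by more than 0.1 to -0.01, the calls were 16 higher and 36 lower. The adjusted p of *JAZ* ranged from 0.00936 to 0.135 over the alternatives and was above 0.05 without each of replicates 1, 2, 3, 4, 5, 7 and 8 in turn (0.0698 to 0.135) and without the filter on low values. Its value was lower in LNJ-high libraries under all of them.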

How the data were processed

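Messenger RNA from leaves was sequenced as read pairs for 8 samples. The authors prepared TruSeq libraries, sequenced them on a HiSeq instrument and, per the labels' processing notes and the methods, used FastQC, TopHat2 and Cufflinks. The deposited unit is FPKM as estimated by Cufflinks, with confidence bounds, in 1 table per sample without pooling. The 27833 rows of a table were reduced to 27830 genes by adding up rows of one identifier. A single row without identifier took at most 3.50e-06% of the FPKM of a library and was left out. No counts were available, so no count model was used. Implied fragments were computed as the square of 2 times the FPKM over the distance to its upper bound. Below 20 fragments, 82.7 to 84.0% of the values came out whole within 0.05.

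Samples were grouped by label, and the genotype of the rule by *LNJ* level and table name, which oppose the labels. Members were selected as described in the report, on unscaled FPKM. Members and lists were chosen with earlier results of these data known. Members received no test. The genes named were *LNJ*, *JAZ* and *NINJA*, the 12 members of highest ratio and the 12 of highest level (with at least 10 fragments in each LNJ-high library), members at 0 in all LNJ-low libraries, those next to the threshold, and neighbouring or overlapping members. As no identifier matched the RefSeq table, identifiers were printed for 2 members besides *LNJ*, and functional groups, cell type markers, promoter motifs and the wider list of JA genes were not analysed here.

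The genotype effect over all 14922 genes used limma 3.58.1 in R 4.3.3 (trend, log2(FPKM + 1), treatment as covariate), called at a Benjamini-Hochberg adjusted p of at most 0.05 and 2-fold. Fits were tested on simulated data with independent noise in each library. The simulation held no pattern shared between genes like that of the LNJ-low replicates, so it does not show how the fit behaves with one. The label gives separate replicates but not whether they were independent cultivations, so p-values measure the spread between these samples. Alternatives covered scaling, filters, pseudocount, thresholds and left-out libraries. Python 3.11.15, pandas 2.3.3 and numpy 2.4.6 were used.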

Additional observations from a re-analysis of the deposited data

Results flagged for a closer look

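Among the genes described, 112 groups of 4 libraries were examined for a single library far from the other 3, by Dixon's ratio at its 95% critical value, and 5 were found. Chance alone marks about 1 in 20 such groups. *LNJ* had 0.834 FPKM in MeJA replicate 8, LNJ-low, and 0 in the other LNJ-low libraries, a difference of 1 fragment. The member at chromosome 3, 19209 to 24628, whose locus overlaps another listed gene, had 1.46 FPKM in MeJA replicate 7, LNJ-low, and was listed at 0 in the other 3. The member at chromosome 3, 14765386 to 14768177, had 126 FPKM in mock replicate 2, against 78.9 to 86.4 FPKM in the other LNJ-high libraries. The member at chromosome 3, 19599028 to 19602802, had 2.40 FPKM in mock replicate 6, against 0.995 to 1.08 FPKM in the other LNJ-low libraries. The member at chromosome 2, 30874552 to 30880183, had 7.15 FPKM in MeJA replicate 8, against 5.07 to 5.40 FPKM in the other LNJ-low libraries.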

How the results depend on the processing

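The number of members, 365, was 171 after median-ratio scaling (170 shared), 217 with a mean of at least 5 FPKM, 206 with 1 FPKM added to both means, 26 at 3-fold and 1102 at 1.5-fold. It ranged from 171 to 654 with 1 library left out, the lowest without replicate 5 and the highest without replicate 6, and from 247 to 802 when the MeJA exclusion was also dropped (565 without replicate 1, 802 without replicate 6). Of the alternatives chosen after seeing the data, leaving out replicates 5 and 8 gave 97 genes (63 shared), the same without the MeJA exclusion 150 (77 shared), and a 2-fold separation 10. The cause was not tested, except that stricter thresholds keep fewer genes by construction. Without a filter (484), with overlap allowed (509), without the MeJA exclusion (376), with at least 10 fragments (363) and scaled without the 10 most abundant genes (427, added after seeing the data), it stayed within 1.5 times. The genotype calls by limma, 165 in all, were 31 without the filter and 52 after median-ratio scaling, and ranged from 11 to 705 with 1 library left out. They were 27, 25, 11, 12, 13, 14 and 12 without replicates 1, 2, 3, 4, 5, 7 and 8 in turn, and 705 without replicate 6. *JAZ* and *NINJA* were called under none of these settings. For 51 named members, 481 of 509 alternative ratios moved by no more than an SD on the log2(FPKM + 1) scale, and 28 moved by more. That SD was taken over the 4 libraries of a genotype, with mock and MeJA together, so it includes the spread between LNJ-low replicates. Direction changed in 0 of the ratios. The separation required by the rule fixed this in advance for left-out libraries and for 1 FPKM added. No paired analysis was possible because replicate numbers are not shared between the groups. The tables give no counts, so depth is known only through the implied fragments, and members of low level rest on few of them.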
